A study of Mus musculus with 8 samples.

Results

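Transcripts of glucose uptake, glycolysis, lactate handling and the hypoxia response were followed in mouse bone marrow progenitors sorted by a histidine decarboxylase reporter. The set holds 38 named genes, chosen by gene symbol: 4 transporters of glucose and lactate, 11 genes of upper and 5 of lower glycolysis, 6 genes that set the fate of pyruvate, 3 subunits of hypoxia-inducible factor (HIF), 4 genes of its oxygen-dependent degradation and 5 of its classical targets. All 38 were among the 23284 genes of the count table, and 36 had enough counts to be tested. Epas1 and Adm did not. No measured value entered the choice of the genes by symbol, but earlier results of these data were known when they were chosen.

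The cells were LSK cells (lineage-negative, Sca-1-positive, c-Kit-positive) from bones of mice on a C57BL/6 background that carry a green fluorescent protein (GFP) reporter of the histamine-making enzyme Hdc. The sort gave an Hdc-GFPhi fraction (n = 4 libraries) and an Hdc-GFPlo fraction (n = 4 libraries), each library made from 2000 cells with amplified cDNA. Both fractions carry the reporter and received no treatment that the labels name, and the animals' age and number are not given. The cell type of Hdc-GFPhi replicate 4 is labelled GFP+ where the other libraries of its fraction are labelled GFPhi. Nothing in the labels says that replicates came from separate mice, so the p-values reflect only how far these samples spread, and that spread may be technical. GFP marks activity of the reporter, and both fractions mix stem cells with multipotent progenitors.

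Glycolysis splits glucose into pyruvate in the cytoplasm, and lactate dehydrogenase then turns pyruvate into lactate where it is not passed to the mitochondria. Pyruvate dehydrogenase kinases close the mitochondrial route by switching off pyruvate dehydrogenase. HIF, a pair of an oxygen-sensitive α subunit and the stable partner ARNT, raises transcription of many of these genes when oxygen is low, because prolyl hydroxylases then no longer mark the α subunit for destruction by the VHL protein. Blood stem cells of the marrow are known for using glycolysis more than their dividing progeny, and the HIF and pyruvate dehydrogenase kinase genes are part of the textbook account of that state.

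HIF binds the core letters ACGTG or GCGTG, so the 250 bases before the start site are shown for 6 of the genes taken up below. They are from RefSeq on GRCm38.p6, on the gene's strand, 5′ to 3′, and each match to either word on either strand is in capitals. Overlapping matches on the 2 strands form the palindrome CACGTG. The windows lie at chr7:46845554-46845803 (plus strand) for the first of 2 start sites of Ldha, chr6:142507958-142508207 (minus) for Ldhb, chr6:5496279-5496528 (minus) for Pdk4, chr13:6648772-6649021 (minus) for Pfkp, chr8:124949255-124949504 (minus) for Egln1 and chr10:59951771-59952020 (minus) for Ddit4.
Ldha: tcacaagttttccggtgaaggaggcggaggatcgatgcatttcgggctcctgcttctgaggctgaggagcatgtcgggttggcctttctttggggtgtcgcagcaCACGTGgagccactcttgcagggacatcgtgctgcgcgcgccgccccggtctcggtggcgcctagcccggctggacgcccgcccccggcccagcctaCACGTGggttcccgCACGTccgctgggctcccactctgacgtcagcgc
Ldhb: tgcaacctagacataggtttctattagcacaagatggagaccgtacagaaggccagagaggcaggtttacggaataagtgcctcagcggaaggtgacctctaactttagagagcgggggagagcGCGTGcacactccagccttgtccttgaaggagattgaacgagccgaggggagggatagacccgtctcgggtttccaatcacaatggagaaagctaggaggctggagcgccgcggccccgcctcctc
Pdk4: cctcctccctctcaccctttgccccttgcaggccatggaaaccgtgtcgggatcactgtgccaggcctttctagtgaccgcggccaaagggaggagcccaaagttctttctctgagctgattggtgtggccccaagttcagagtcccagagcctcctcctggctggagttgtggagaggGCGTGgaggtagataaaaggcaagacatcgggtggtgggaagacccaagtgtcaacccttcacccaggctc
Pfkp: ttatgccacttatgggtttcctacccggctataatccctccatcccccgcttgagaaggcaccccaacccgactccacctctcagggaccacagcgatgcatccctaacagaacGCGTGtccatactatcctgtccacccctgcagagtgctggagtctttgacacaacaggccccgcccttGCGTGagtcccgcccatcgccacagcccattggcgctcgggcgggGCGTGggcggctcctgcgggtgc
Egln1: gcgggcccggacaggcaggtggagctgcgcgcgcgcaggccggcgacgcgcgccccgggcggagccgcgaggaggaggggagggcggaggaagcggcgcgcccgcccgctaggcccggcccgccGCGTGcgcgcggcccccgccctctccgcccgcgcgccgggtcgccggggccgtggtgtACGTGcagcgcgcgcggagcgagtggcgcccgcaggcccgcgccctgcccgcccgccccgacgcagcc
Ddit4: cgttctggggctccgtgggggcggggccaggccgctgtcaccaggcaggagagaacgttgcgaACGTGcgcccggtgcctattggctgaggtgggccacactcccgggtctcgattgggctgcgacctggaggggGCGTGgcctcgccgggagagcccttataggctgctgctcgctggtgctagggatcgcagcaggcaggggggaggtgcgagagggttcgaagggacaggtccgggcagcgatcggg

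The printed Ldha window held 5 matches, all to ACGTG. A palindrome counts on both strands, here and for Hif1a below, so the matches outnumber the separate sites. The window of the other Ldha start site, at chr7:46846832-46847081 and not printed, held 1 match, to GCGTG, and so did the Ldhb window. Pfkp held 3 matches and Pdk4 held 1, all to GCGTG. Egln1 and Ddit4 each held 1 match to each word. Of the 7 genes with an unadjusted p under 0.05 in the comparison below, Aldoc, Eno2 and Hif1a are not printed. The Eno2 window held no match, the Hif1a window held 3, all to ACGTG, and each Aldoc window held 1, to GCGTG. At least 1 match was present in 80.0% of the 50 windows of the 35 genes of the set that had one, and in 38.6% of all 32851 windows of the same length. ACGTG alone was in 46.0% of the set's windows and 16.6% of all windows, and GCGTG was in 56.0% and 28.2%. The set's windows were also richer in G and C, with a median of 59.4% against 52.4%, and both words hold more G and C than A and T. A match describes the letters in the window and is not a measured binding site.

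The libraries held 21041170 to 22470121 counts in Hdc-GFPhi and 16726179 to 23051277 in Hdc-GFPlo. The LSK gate genes Kit and Ly6a averaged 1460 and 125 CPM (counts scaled to library size) in Hdc-GFPhi and 1195 and 119 CPM in Hdc-GFPlo. Markers of lymphoid priming were lower in Hdc-GFPhi for 12 of 12 genes tested, 9 of them called, with summed levels of 1488 to 1915 CPM against 3014 to 4001. Stem cell markers were higher for 12 of 12, 2 of them called, with 2404 to 2783 CPM against 1705 to 2005. B lineage markers were lower for 9 of 9, 6 of them called, with 98.0 to 189 against 316 to 636 CPM. Of 12 myeloid progenitor markers 11 were lower, 6 of them called, with 769.6 to 1108 against 1027 to 1244 CPM. Of 11 proliferation genes none was called, with sums of 3823 to 4954 against 3482 to 4664 CPM. Hdc-GFPlo replicate 3 stood apart. Across 13135 genes, its deviation from its fraction's mean ran against transcript length with a Spearman coefficient of -0.467, against -0.204 to 0.338 in the other libraries, and its Kit level was 748 CPM where the other 7 libraries had 1223 to 1537. The part of the marker lists in the results below was not tested. Values without Hdc-GFPlo replicate 3 are given below for some genes only, not for each gene that it moves. Without it the log2 fold change of Ddit4, for example, went from -0.08 to -0.22. With the trend on transcript length removed 0 genes of the set were called, as with it. In such bulk samples, fewer cells of a type and less RNA per cell cannot be told apart.

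The glycolysis and hypoxia genes took much the same share of the transcriptome in both fractions. Their counts made up 0.461% ± 0.0200 of all counts in Hdc-GFPhi and 0.449% ± 0.0144 in Hdc-GFPlo (SD, n = 4 each). None of the 36 genes passed an adjusted p of 0.05 in edgeR's quasi-likelihood test over all genes, where 0.947% of all 13300 tested genes did (0.241% higher and 0.707% lower in Hdc-GFPhi). At an unadjusted p under 0.05 there were 7 (19.4%, against 10.9% of all genes). Of these, 5 were higher in Hdc-GFPhi (13.9%, against 5.33%) and 2 were lower (5.56%, against 5.56%). The groups did not overlap for 3 genes, Pfkp, Ldhb and Pdk4 (8.33%, against 6.92% of all genes). In each of the 3 Hdc-GFPhi was the higher fraction, as in 3.38% of all genes. DESeq2 called 2 genes of the set, Pfkp and Pdk4, and 3.04% of all genes. Limma voom called 2, Aldoc and Pdk4, and 2.09% of all genes.

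Most fold changes were small. The median log2 fold change, Hdc-GFPhi over Hdc-GFPlo, was 0.03 over the 36 genes, and the median of its size was 0.147, against 0.142 over all tested genes. In 30 of the 36 the size was below 0.3 on the log2 scale. The 95% interval lay within a 1.5-fold change in either direction for 25 genes and within a 2-fold change for 33. The 3 with wider reach were Pdk4, Eno2 and Ddit4.

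**Figure D1:**
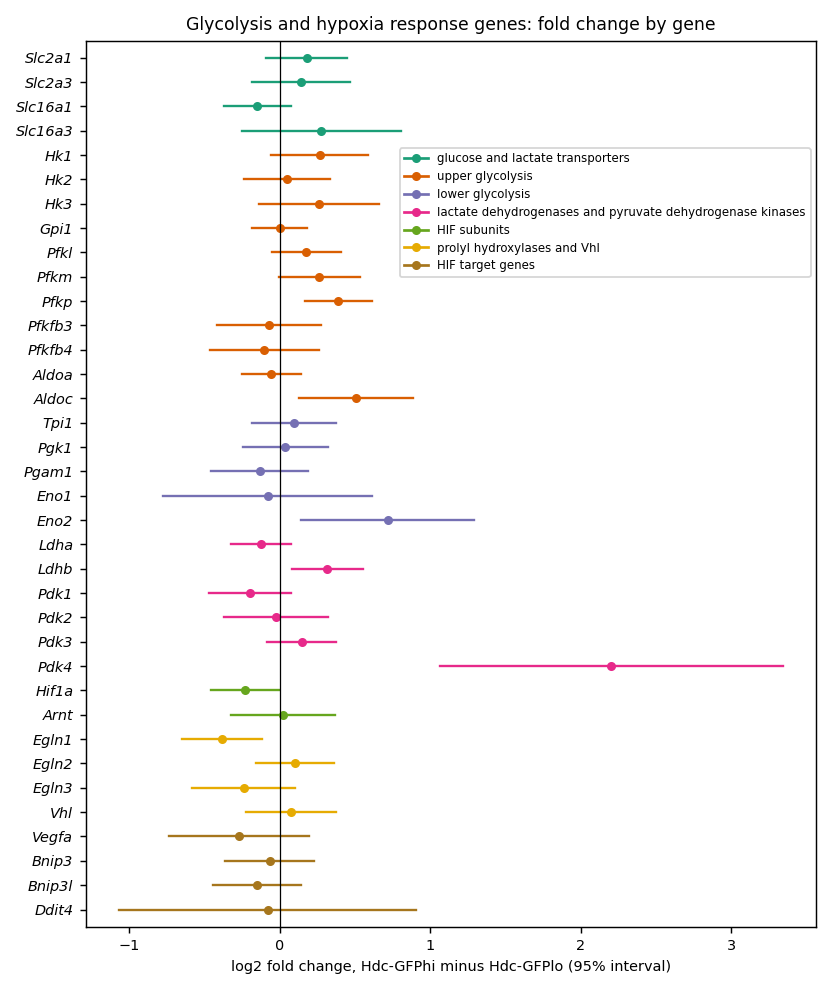
Log2 fold change of each of the 36 tested genes (points) with its 95% interval from edgeR (lines), Hdc-GFPhi minus Hdc-GFPlo, coloured by role; the vertical line marks no difference. Most intervals cross 0, Pdk4 lies farthest right at 2.20, and Egln1 and Hif1a lie left of 0.

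Transporters carry glucose into the cell and lactate out of it. Slc2a3, which encodes the high-affinity glucose transporter GLUT3, had the highest CPM of the 4. It stood at 166, 210.2, 155 and 159 CPM in Hdc-GFPhi replicates 1 to 4 and at 154, 201, 120.3 and 151 CPM in Hdc-GFPlo. Replicate 2 was the highest library in both fractions and the groups overlapped (log2 fold change 0.14 ± 0.15 SE, adjusted p = 0.8286). Slc2a1, the basal glucose transporter GLUT1, averaged 48.1 ± 3.21 CPM in Hdc-GFPhi and 42.5 ± 5.53 in Hdc-GFPlo. The lactate transporters Slc16a1 and Slc16a3 (MCT1 and MCT4) averaged 76.7 against 85.1 CPM and 7.16 against 5.91 CPM. Of the 4 transporters, 3 lay above 0 and 1 below, with a median log2 fold change of 0.16, and the groups overlapped in each.

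Upper glycolysis traps glucose as phosphate and cleaves it, and its committed step is phosphofructokinase. Aldoa, the main aldolase, had the highest level at 693, 662, 608 and 626 CPM in Hdc-GFPhi and 678, 657, 738 and 617 CPM in Hdc-GFPlo. The fractions overlapped throughout (log2 fold change -0.06 ± 0.09, adjusted p = 0.898). Over the 11 genes the median log2 fold change was 0.18, with 7 above 0 and 4 below, and 2 had an unadjusted p under 0.05.

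Those 2 were Pfkp, the platelet-type phosphofructokinase, and Aldoc, the brain-type aldolase. Markers of megakaryocytes, the platelet-forming cells, averaged higher in Hdc-GFPhi beside Pfkp for 6 of 6 genes, none of them called and 3 at an unadjusted p under 0.05. They summed to 137 to 160.2 CPM against 85.0 to 118 CPM, and their part in the Pfkp values was not tested. Pfkp measured 118, 115, 109 and 104 CPM in the 4 Hdc-GFPhi libraries and 77.4, 93.2, 79.0 and 90.6 CPM in the 4 Hdc-GFPlo libraries. Each Hdc-GFPhi library was above each Hdc-GFPlo library, with a log2 fold change of 0.39 ± 0.10 SE (95% interval 0.17 to 0.61) and an adjusted p of 0.119. DESeq2 called Pfkp at an adjusted p of 0.0141, and over the 21 alternatives the value ran from there to 0.729. Aldoc measured 24.0, 23.1, 28.8 and 28.6 CPM against 15.2, 16.8, 24.9 and 16.7 CPM. Only Hdc-GFPlo replicate 3 reached the Hdc-GFPhi range (log2 fold change 0.51 ± 0.17, adjusted p = 0.255). Without that library the log2 fold change was 0.70 with an adjusted p of 0.0413, and limma voom, which weights libraries, gave an adjusted p of 0.033. Over the alternatives the adjusted p of Aldoc reached 0.8292.

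The other 8 genes of upper glycolysis overlapped between the fractions. The muscle-type phosphofructokinase Pfkm averaged 99.01 ± 9.18 CPM in Hdc-GFPhi and 82.5 ± 12.0 in Hdc-GFPlo, and the liver-type Pfkl 305 ± 23.4 and 270.2 ± 30.6. Hk1, the hexokinase with the most reads, averaged 308 ± 31.2 and 257 ± 53.8 CPM, where Hdc-GFPlo replicate 3 alone was at 176 CPM. Its log2 fold change was 0.26 with that library and 0.14 without it. Hk2 and Hk3 averaged 51.9 against 50.1 CPM and 84.2 against 70.4 CPM. Gpi1, the isomerase that follows hexokinase, was at 409 ± 21.3 and 409 ± 15.4 CPM. Pfkfb3 and Pfkfb4, which make and remove the sugar phosphate that activates phosphofructokinase, averaged 48.4 against 50.9 CPM and 32.3 against 34.7 CPM.

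Lower glycolysis recovers energy as ATP on the way to pyruvate. Tpi1, triose phosphate isomerase, measured 277, 248, 259 and 288 CPM in Hdc-GFPhi and 228, 208, 323 and 243 CPM in Hdc-GFPlo. The highest of the 8 libraries was Hdc-GFPlo replicate 3, and the groups overlapped (log2 fold change 0.10 ± 0.13, adjusted p = 0.868). Without that library the difference was larger, at a log2 fold change of 0.26 with an adjusted p of 0.242. Eno2, the neuronal enolase, measured 8.83, 8.45, 5.21 and 7.93 CPM against 5.13, 6.36, 3.32 and 3.70 CPM. Hdc-GFPhi replicate 3 lay within the Hdc-GFPlo range and the other 3 lay above it (log2 fold change 0.72 ± 0.26, adjusted p = 0.307). Over the 21 alternatives the log2 fold change of Eno2 ran from 0.58 to 0.90. Pgk1 averaged 34.5 against 33.6 CPM, Pgam1 17.6 against 19.2 and Eno1 1.89 against 2.001, all overlapping. Of the 5 genes, 3 lay above 0 and 2 below, with a median log2 fold change of 0.04.

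At the end of glycolysis, Ldha encodes the lactate dehydrogenase subunit of glycolytic tissues and Ldhb that of oxidative tissues such as heart. Ldha measured 590.4, 573, 646 and 552 CPM in Hdc-GFPhi and 628, 583, 701 and 658 CPM in Hdc-GFPlo. The groups overlapped (log2 fold change -0.12 ± 0.09, adjusted p = 0.725). Ldhb measured 118, 123, 107 and 114 CPM against 79.9, 96.9, 105.0 and 89.0 CPM. The lowest Hdc-GFPhi library, replicate 3, was just above the highest Hdc-GFPlo library, also replicate 3 (log2 fold change 0.32 ± 0.11, 95% interval 0.08 to 0.55, adjusted p = 0.255). As a share of the summed per-length level of both genes, Ldhb was 21.4% ± 1.88 in Hdc-GFPhi and 16.7% ± 1.64 in Hdc-GFPlo, and the ranges met at 18.7% and 18.8%. With single libraries left out, the log2 fold change of Ldhb ran from 0.25 (adjusted p = 0.617, without Hdc-GFPlo replicate 1) to 0.40 (adjusted p = 0.0924, without Hdc-GFPlo replicate 3).

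Pdk4, the pyruvate dehydrogenase kinase known from fasting and fat oxidation, had the largest fold change of the set at a very low level. Its raw counts were 18, 40, 32 and 19 in the Hdc-GFPhi libraries and 3, 4, 8 and 5 in the Hdc-GFPlo libraries, or 109 against 20 in all. Each Hdc-GFPhi library was above each Hdc-GFPlo library, also as CPM (1.24 ± 0.507 against 0.267 ± 0.129, SD, n = 4 each). The log2 fold change was 2.20 ± 0.53 SE, with a 95% interval of 1.06 to 3.35 and an adjusted p of 0.0792, the smallest of the set. DESeq2 gave 0.0223 and limma voom 0.0322, and leaving out single libraries in edgeR gave 0.0817 (without Hdc-GFPlo replicate 3) to 0.297.

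The other 3 kinases carried nearly all pyruvate dehydrogenase kinase transcripts. Pdk1, the kinase induced by HIF, averaged 329.9 ± 28.0 CPM in Hdc-GFPhi and 379 ± 65.8 in Hdc-GFPlo (log2 fold change -0.20 ± 0.12, adjusted p = 0.645). Pdk3 averaged 164 ± 14.98 against 148 ± 14.6 CPM and Pdk2 41.7 ± 6.83 against 42.4 ± 7.95. None of the 3 separated the fractions. Pdk4 made up 0.218% of the summed per-length level of the 4 kinases in Hdc-GFPhi and 0.0478% in Hdc-GFPlo.

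**Figure D2:**
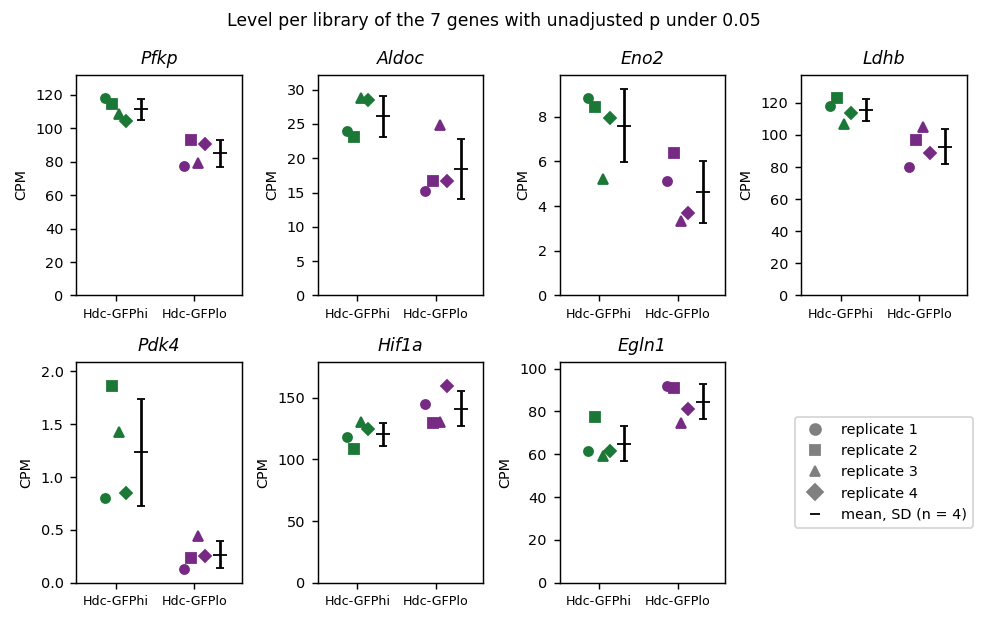
CPM in each library (linear axes from 0) for the 7 genes with an unadjusted p under 0.05, with marker shape for the replicate number, and mean and SD (n = 4) beside each fraction. Pfkp, Ldhb and Pdk4 do not overlap between the fractions, Hdc-GFPlo replicate 3 reaches the upper group in Aldoc, and Hif1a and Egln1 are higher in Hdc-GFPlo on average.

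Hif1a encodes the α subunit of HIF found in most cells. It measured 118, 109, 130.1 and 124 CPM in Hdc-GFPhi and 145, 129, 130.3 and 159.9 CPM in Hdc-GFPlo. The lower 2 Hdc-GFPlo libraries lay within or at the edge of the Hdc-GFPhi range, and the log2 fold change was -0.23 ± 0.11 SE with an adjusted p of 0.452. Its partner Arnt averaged 81.0 ± 12.0 and 79.8 ± 15.7 CPM (log2 fold change 0.02 ± 0.16, and -0.10 without Hdc-GFPlo replicate 3, where Arnt was at 56.55 CPM). Epas1, the α subunit known from endothelium and lung, had 15, 7, 5 and 16 counts against 9, 5, 4 and 6, too few to test.

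Egln1, the main oxygen-sensing prolyl hydroxylase, measured 61.4, 77.2, 59.4 and 61.6 CPM in Hdc-GFPhi and 92.1, 90.8, 74.6 and 81.1 CPM in Hdc-GFPlo. Hdc-GFPhi replicates 1, 3 and 4 lay below each Hdc-GFPlo library, and replicate 2 lay above Hdc-GFPlo replicate 3 alone. The log2 fold change was -0.38 ± 0.12 SE (95% interval -0.65 to -0.12, adjusted p = 0.215), and -0.42 without Hdc-GFPlo replicate 3. Its paralogues Egln2 and Egln3 averaged 70.1 against 65.3 CPM and 18.5 against 21.8 CPM, and Vhl 52.5 against 49.8 CPM, with overlap in each.

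Per transcript length, Egln1 made up 31.0% ± 1.35 of the 3 hydroxylases in Hdc-GFPhi and 37.6% ± 1.99 in Hdc-GFPlo (SD, n = 4 each). Egln2 made up 57.2% ± 1.51 and 49.3% ± 1.89. Neither pair of ranges overlapped, with longest or with median transcript length, whereas Egln3 overlapped at 11.8% and 13.2%. The shares of Pfkp (9.94% against 8.85%), Pdk4, and Aldoc against Aldoa (2.21% against 1.49% for Aldoc) did not overlap either. These shares are a description over 11 families, with no test, and within a family a higher share of 1 gene lowers that of the others. The level of Egln2 itself overlapped between the fractions (log2 fold change 0.10, adjusted p = 0.843 by edgeR). How often such shares separate in other gene families was not measured.

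**Figure D3:**
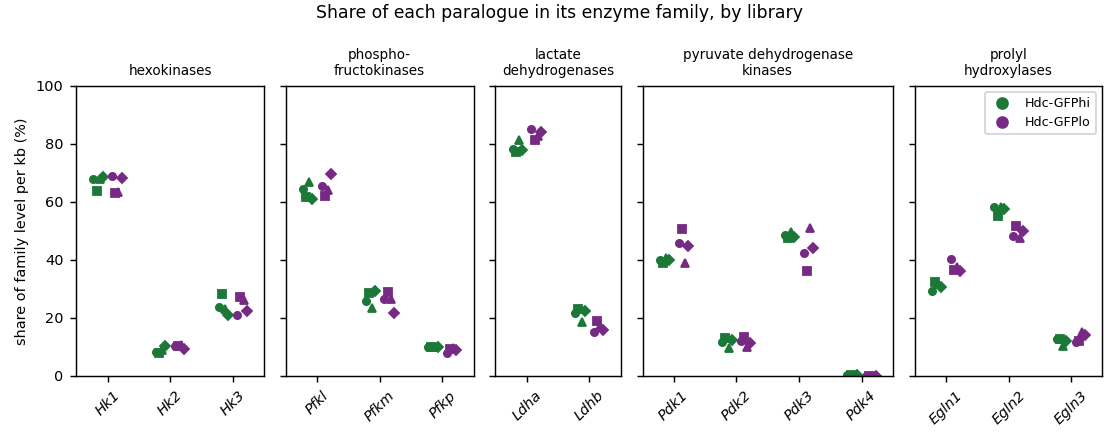
Share of each paralogue in the summed level per kb of its family (%, axis 0 to 100), 1 point per library, circles, squares, triangles and diamonds for replicates 1 to 4. Egln1, Egln2, Pfkp and, near 0, Pdk4 separate the fractions, and the Ldhb ranges meet at 18.7% and 18.8%.

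HIF raises other genes of the set too, such as Pdk1, which are given above under their own roles. Of the 5 genes grouped here as HIF targets, the 4 tested averaged lower in Hdc-GFPhi. Over all 36 tested genes of the set, 19 lay above 0 and 17 below. The 4 had log2 fold changes of -0.27 to -0.07, with a median of -0.11 and none at an unadjusted p under 0.05. Ddit4 and Bnip3 changed sign under 5 and 1 of 21 alternatives. Bnip3l, which drives removal of mitochondria, had the highest CPM of the 4 at 84.1, 115, 99.1 and 110.4 in Hdc-GFPhi and 98.8, 127, 129.6 and 97.1 in Hdc-GFPlo. The groups overlapped (log2 fold change -0.15 ± 0.13, adjusted p = 0.784). Its relative Bnip3 averaged 32.8 against 34.4 CPM, and Vegfa, the vascular growth factor, 23.2 ± 5.87 against 28.1 ± 7.55 CPM. Adm, the peptide hormone adrenomedullin, had 7 counts in all in Hdc-GFPhi and 3 in Hdc-GFPlo.

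Ddit4, which encodes the mTORC1 inhibitor REDD1 and answers to hypoxia, glucocorticoids and stress, differed more between libraries of 1 fraction than between the fractions. It measured 15.4, 5.69, 5.34 and 5.71 CPM in Hdc-GFPhi and 17.7, 4.63, 5.65 and 5.88 CPM in Hdc-GFPlo. Replicate 1 was the high library in both fractions and the other 6 lay within 4.63 to 5.88 CPM. The log2 fold change between fractions was -0.08 with a 95% interval of -1.07 to 0.90. Replicate 1 was then compared with the highest other library of its fraction in 12264 genes with at least 10 counts in each library. By the smaller of the 2 excesses Ddit4 ranked 1, with excesses of 1.43 and 1.59 on the log2 scale. Per1, Plk2 and Klf2 followed, and Nr4a1, Cdkn1a, Dusp2 and Tsc22d3 were also within the first 10. Genes with fewer counts were not ranked. Among them, Hspa1b measured 2.14, 0.747, 0.490 and 0.267 CPM in Hdc-GFPhi and 2.48, 0.416, 0.332 and 0.304 in Hdc-GFPlo. Atf3 and Hspa1a, also not ranked, were likewise highest in replicate 1 of both fractions. The circadian gene Per1 measured 30.0, 11.1, 6.37 and 8.16 CPM in Hdc-GFPhi and 23.5, 5.46, 6.09 and 5.93 in Hdc-GFPlo. The early response gene Fos measured 433, 325, 18.2 and 38.4 CPM in Hdc-GFPhi and 363, 266, 31.7 and 15.5 in Hdc-GFPlo, high in replicates 1 and 2 of both. The labels do not say whether replicates of the same number were handled together.

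**Figure D4:**
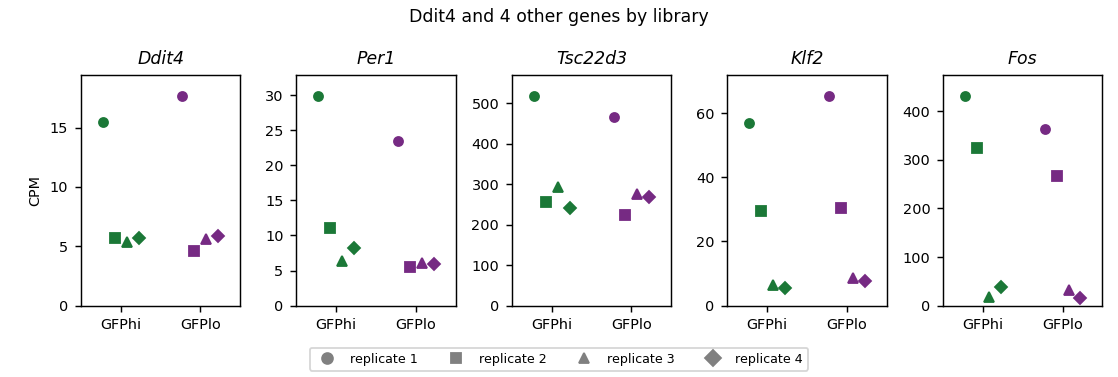
CPM per library (linear axes from 0) of Ddit4 and of Per1, Tsc22d3, Klf2 and Fos, with marker shape for the replicate number. Replicate 1 is the highest library of both fractions in each panel, and Klf2 and Fos are also high in replicate 2.

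Levels between genes were compared per kb of the longest annotated transcript. Aldoa at 426 CPM per kb and Ldha at 339.6 led, followed by Tpi1 (161), Gpi1 (128) and Ldhb (79.8). The next were Pfkl, Pdk3, Pdk1 and Hk1, between 66.0 and 77.1 CPM per kb. At the other end stood Eno1 at 0.961, Pdk4 at 0.216, Epas1 at 0.0714 and Adm at 0.0438. In 10 of 11 families the leading paralogue was the same with the median transcript length: Hk1, Pfkl, Aldoa, Eno2, Ldha, Slc2a3, Slc16a1, Egln2, Pfkfb3 and Bnip3l. The exception was the pyruvate dehydrogenase kinases, led by Pdk3 with the longest and by Pdk1 with the median length. These leads are by mean level and among genes of the set only. Eno3, an enolase outside the set, averaged 14.6 CPM in Hdc-GFPhi and 13.47 in Hdc-GFPlo, above Eno2 in both. The lead of Pfkfb3 did not hold in each library. Pfkfb4 had the larger share in Hdc-GFPhi replicate 1 (53.2%) and Hdc-GFPlo replicates 2 (55.22%) and 3 (50.69%), and Pfkfb3 in the others.

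Some of these levels are uncertain because the genes have near-identical copies, most of them processed pseudogenes. The share of 50-base stretches of the longest transcript that also occur in another gene was 72.2% for Eno1, 68.0% for Pgk1, 62.4% for Bnip3 and 41.5% for Pgam1. For 7 genes it was 7.3% to 27.0%, among them Ldhb (27.0%), Ldha (16.6%) and Aldoa (13.5%), and for the other 27 it was under 3%. Eno1, the enolase known as ubiquitous, had 168 counts in all in Hdc-GFPhi. Gapdh, outside the set, shared 27.8%, with 218 other genes, and had only 10.5 and 9.15 CPM in the 2 fractions. Pkm2, also outside the set, shared 34.4%, with 8 other genes, and had 964 and 897 CPM. The part of shared sequence in these levels was not tested. The authors' handling of reads that map to several genes is not given here. Pfkp, Aldoc, Eno2, Pdk4 and Egln1 shared under 3%, and Hif1a shared 7.3%, with 2 other genes, above all the antisense gene Gm15283.

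**Figure D5:**
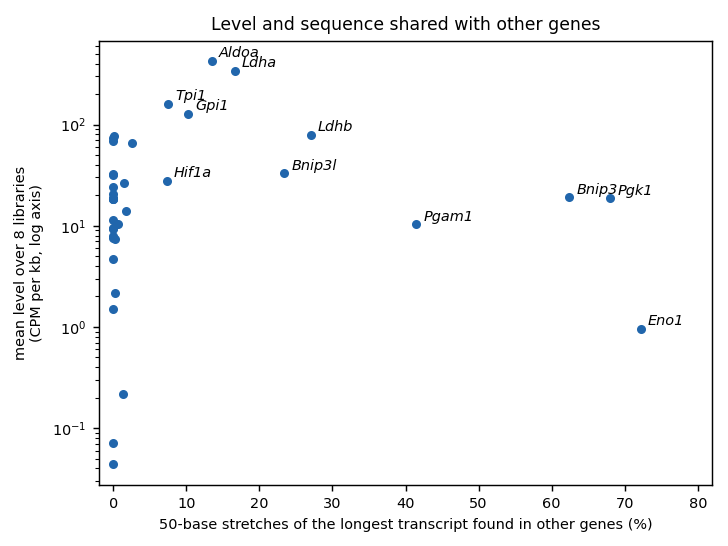
Mean level over the 8 libraries (CPM per kb, log axis) against the share of 50-base stretches of the longest transcript found in other genes (%), for the 38 genes, with the 11 at 7.3% or more named. Eno1, Pgk1, Bnip3 and Pgam1 lie at the right, at 41.5% or more, and Eno1 is the lowest of the named points.

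Neighbouring pathways, given from 8 lists of related genes, held no gene called by edgeR, where 0.947% of all tested genes were. DESeq2 and limma voom called genes in the list of other transporters and their chaperones alone. At an unadjusted p under 0.05 were 1 of 15 other enzymes of or near glycolysis, 1 of 14 glycogen metabolism genes and 4 of 10 in the transporter list. So were 5 of 28 other hypoxia-inducible genes, 3 of 21 upstream regulators and 0 in the remaining 3 lists, of 11, 11 and 14 genes. Among all tested genes the share was 10.9%. Of 15 enzymes of or near glycolysis outside the set, 12 lay above 0 and 3 below (median log2 fold change 0.15). That list takes in enzymes that are not steps of glycolysis, such as Fbp1, Pgm1, Pgm2 and Minpp1, and the split includes them. Pgm2, a phosphoglucomutase, was at 128 ± 14.7 against 109 ± 3.76 CPM and the pyruvate kinase Pkm2 at 964 against 897 CPM. Of 11 pentose phosphate genes, 4 lay above 0 and 7 below (median -0.06). The same split held for 11 genes of pyruvate entry into mitochondria (median -0.10). Of 14 genes of glycogen metabolism, 9 lay above 0 (median 0.05), with the phosphorylase kinase subunit Phka2 at 109 against 86.0 CPM.

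Among 10 other genes of the sugar and monocarboxylate transporter families and their chaperones, 3 were lower in Hdc-GFPhi with no overlap, where 3.54% of all genes were. Not all of the 3 carry sugars or monocarboxylates. Emb, embigin, a chaperone of monocarboxylate transporters, measured 399.5, 496, 402 and 367 CPM in Hdc-GFPhi and 586, 625, 606 and 512 CPM in Hdc-GFPlo (log2 fold change -0.48 ± 0.11 SE, adjusted p = 0.0659). Each Hdc-GFPhi library was below each Hdc-GFPlo library. Slc2a6, a glucose transporter family member, averaged 1.20 ± 0.461 against 3.81 ± 1.22 CPM (-1.67 ± 0.40, adjusted p = 0.0759). That is a low level, with 106 counts in all in Hdc-GFPhi and 298 in Hdc-GFPlo. Slc16a10, an aromatic amino acid transporter, averaged 13.5 against 20.4 CPM. With single libraries left out, the adjusted p of Emb ran from 0.0302 (without Hdc-GFPhi replicate 2) to 0.214 and that of Slc2a6 from 0.043 (without Hdc-GFPlo replicate 3) to 0.255, and each was called in 1 of 8 such fits. DESeq2 and limma voom each called 3 genes of this list, where they called 3.04% and 2.09% of all genes, against 0 by edgeR. Lymphoid priming (1488 to 1915 against 3014 to 4001 CPM in sum), B lineage and myeloid progenitor markers were lower in Hdc-GFPhi too, and their part in these values was not tested.

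Of 28 other hypoxia-inducible genes tested, 11 lay above 0 and 17 below (median -0.04). At an unadjusted p under 0.05, 3 were higher and 2 lower. Ak4, a mitochondrial adenylate kinase and HIF target, measured 40.8, 36.1, 29.4 and 36.6 CPM in Hdc-GFPhi and 26.4, 28.5, 19.3 and 26.5 CPM in Hdc-GFPlo, without overlap (log2 fold change 0.51 ± 0.15 SE, adjusted p = 0.19). Tfrc, the transferrin receptor, was at 90.2 ± 23.7 against 128 ± 24.8 CPM, and Nampt at 95.5 ± 17.6 against 119.8 ± 8.75. Of 14 further HIF regulators, 7 lay on either side of 0, with Hif3a, an inhibitory α subunit, at 16.6 ± 2.06 against 11.7 ± 4.39 CPM.

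Among 21 upstream regulators linked to glycolysis in stem cells, 13 lay above 0 and 8 below, with a median of 0.05. Mycn, a MYC family factor of stem cells, measured 329, 388, 341 and 393 CPM in Hdc-GFPhi and 256, 319.8, 275 and 297 CPM in Hdc-GFPlo. The fractions did not overlap (log2 fold change 0.34 ± 0.10 SE, adjusted p = 0.194). Prkaa2, a catalytic subunit of the energy sensor AMPK, averaged 7.03 ± 2.30 against 4.25 ± 0.676 CPM, and Foxo1 37.1 ± 5.34 against 46.9 ± 8.09.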

How the data were processed

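Gene-level read counts of 8 libraries were deposited by the authors as whole numbers per gene symbol, not normalized. The submitters' processing notes list HTSeq 0.6.1, TopHat2 (written as version 2.04), Bowtie2, bcl2fastq 1.8.4 and the build mm9. Tool settings, gene models, strandedness and the handling of multiply mapped reads are each not given in the sources used here. Amplified cDNA without molecular identifiers counts copies of 1 molecule separately.

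Genes were filtered with filterByExpr (13300 of 23284 kept), scaled by TMM and tested with edgeR 4.0.16 (quasi-likelihood, robust) in R 4.3.3 on all 8 libraries without covariates. Benjamini-Hochberg adjustment ran over all tested genes, and a gene is called at an adjusted p under 0.05. Fold changes are ± SE, and CPM values are TMM-scaled, ± SD. The biological coefficient of variation was 19.9%. The fit was tested on simulated data. There it found 12.2% of 49 planted differences with a log2 size of 0.5 and 80% of 50 with a size of 1. All those with a size of 2 or 4 were found, and 15 calls were false. These rates were not computed for the genes of the set, whose levels and spread may differ from those of the planted genes. No conclusion on log2 differences near 0.5 in the set is therefore drawn from them. The intervals given above are for the set itself. They lay within a 1.5-fold change in either direction for 25 of the 36 tested genes and reached past it for the others. Alternatives used limma 3.58.1 voom, DESeq2 1.42.0, other scalings and filters, the replicate number as a block, and left-out libraries. Leaving out replicate 1 of both fractions, and removing the trend on transcript length, were chosen after seeing the data.

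The genes and lists were chosen with earlier results of these data known. Values in all 8 libraries are given for genes with an unadjusted p under 0.05 or without overlap, and for the highest tested gene of each role. From each related list up to 3 genes with the smallest p could be named. Ddit4, Pkm2, Gapdh, Epas1, Per1, Fos and the genes beside Per1 were chosen after their values were seen. Lengths and shared stretches came from GENCODE M21 transcripts, and promoters from RefSeq, matched by symbol for 35 of 38 genes. Slc2a3, Epas1 and Bnip3l were not matched. Pairs of libraries within a fraction differed by more than sampling noise (chi-square per degree of freedom at least 13.3).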

Additional observations from a re-analysis of the deposited data

Results flagged for a closer look

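In groups of 4 libraries, 7 of 72 tests found 1 library far from the other 3 of its fraction, in 6 genes, where chance flags about 1 in 20 groups. In Hdc-GFPlo replicate 3, Hk1 was at 176.3 CPM where the other 3 libraries of the fraction had 277 to 291. In the same library Arnt was at 56.55 CPM where the others had 85.1 to 90.9, and Aldoc was at 24.87 CPM where the others had 15.2 to 16.8. This is the library whose deviations ran against transcript length with a coefficient of -0.467. With the trend on transcript length removed, the log2 fold change between the fractions was 0.26 for Hk1, 0.01 for Arnt and 0.51 for Aldoc, against 0.26, 0.02 and 0.51 with it. These values compare the fractions. The part of the trend in the levels of that library was not tested. In Hdc-GFPlo replicate 4, Gpi1 was at 386.2 CPM, below 415 to 418 in the others. In Hdc-GFPhi replicate 2, Egln1 was at 77.22 CPM, above 59.4 to 61.6 in the others. Ddit4 was flagged in both fractions for replicate 1. It was at 15.43 CPM where the other Hdc-GFPhi libraries had 5.34 to 5.71, and at 17.7 CPM where the other Hdc-GFPlo libraries had 4.63 to 5.88.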

How the results depend on the processing

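Of 754 values of single genes under the alternatives, 749 stayed on the same side of the threshold and 5 passed it: Pfkp and Pdk4 by DESeq2, Aldoc and Pdk4 by limma voom, and Aldoc without Hdc-GFPlo replicate 3. The number called in the set was thus 2 by DESeq2, 2 by limma voom, 0 to 1 with single libraries left out and 0 otherwise. Of the 36 tested genes, 11 changed sign under at least 1 alternative, and none of the 7 with an unadjusted p under 0.05 did. Over all genes, the 126 calls became 404 by DESeq2, 278 by limma voom, 275 with a covariate that sets replicates 1 and 2 apart from 3 and 4, and 224 with the replicate block. They ranged from 52 (without Hdc-GFPlo replicate 1) to 146 with single libraries left out, with 68 without Hdc-GFPhi replicate 3. Without replicate 1 of both fractions there were 33, none of them higher in Hdc-GFPhi, where the full set had 32 higher and 94 lower. Over all tested genes, same-numbered libraries of the fractions correlated at 0.257, 0.347, 0.076 and 0.1 in their deviations, and 4 of 8 libraries correlated best with their own number. Over the tested genes of the set the same pairs correlated at 0.823, 0.539, 0.39 and -0.033, and unlike-numbered pairs at -0.473 to 0.354. The first value includes Ddit4, far above the other libraries in replicate 1 of both fractions, and was not computed without that gene. The third same-numbered pair was below 0.1 over all genes and the labels tie no number to a shared animal, batch or day. The numbers were therefore not used as pairs in the main fit, and the replicate block called 0 genes of the set. Whether replicates 1 or 2 were handled together across fractions is not known. Pdk4 and Eno1 were too low for the filter of at least 50 counts in 4 libraries. Low counts limit Pdk4, Epas1 and Adm.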
